A study of Mus musculus with 14 samples.

Results

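Wide H3K4me3 domains of the mouse prefrontal cortex were taken as called regions whose first and last summits lay at least 2500 bp apart. H3K4me3 is the trimethylated form of lysine 4 of histone H3, and a summit is a local maximum of the immunoprecipitated reads. The deposited table lists 153207 summits, and summits that share a peak number and differ only in the letters after it were taken as 1 called region, which gave 48695 regions. Of these regions 583 (1.20%) were wide, and they held 10032 summits (6.55%). Each domain was assigned the mm10 RefSeq genes that overlapped it or lay within 2 kb. Its level was the sum over its summits of the reads the authors had normalised by 1 factor per library. Its shape was the log2 ratio of the mean inner summit to the mean of the first and last summit, with 1 added to each mean.

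The 13 libraries came from adult male C57BL/6J mice of 10 to 12 weeks (the strain tag reads C57BL/6). In the SDS10 group (5 libraries) mice met an aggressive CD1 stranger briefly on each of 10 days and lived beside an aggressor between meetings. In the SDS30 group (5 libraries) the same social defeat lasted 30 days. In the control group (3 libraries) mice lived in divided cages with no aggressor. Defeated mice also went through behaviour tests, and the prefrontal cortex was taken 24 h after the last session. Chromatin was cut with micrococcal nuclease and precipitated with an antibody against H3K4me3. All libraries carry the same batch date, and an input library was not analysed here. Whether each library is 1 animal is not said in the labels, so the p-values given here rest on the variation among libraries, which may be technical. Because the tissue is a mixture of cell types, fewer cells of a type and less mark per cell cannot be told apart.

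H3K4me3 is written by the SET1 and MLL families of methyltransferases and marks the nucleosomes around active transcription start sites. At most promoters it covers a few nucleosomes. At some genes it spreads far into the transcribed body, and such broad domains are known from several tissues for genes that define the identity of the cell. In cortex such genes include transcription factors that set neuronal type. CpG-rich sequence recruits part of the writing machinery through CXXC-domain proteins.

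Sequences are given first, because the domains differ in what they lie on. RefSeq annotates 19 miRNA genes within 2 kb of wide domains. Of the 1005 hairpins in the RefSeq sequence table, 12 lay inside or within 2 kb of 11 wide domains, 8 of them inside, and 221 near any called region. The mature forms shown are those of the let-7, miR-125 and miR-9 families, known for roles in the timing of neural development, and they were chosen after the values were seen. Capitals mark the seed, bases 2 to 8.
mmu-let-7i-5p: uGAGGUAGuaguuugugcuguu
mmu-let-7e-5p: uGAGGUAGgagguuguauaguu
mmu-miR-125b-5p: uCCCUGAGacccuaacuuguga
mmu-miR-125a-5p: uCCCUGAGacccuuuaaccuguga
mmu-miR-9-5p: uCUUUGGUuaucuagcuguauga
The let-7i hairpin (chr10:122985640-122985724, mm10, minus strand) lay inside a wide domain of 2601 bp. The let-7e and miR-125a hairpins (chr17:17830352-17830444 and chr17:17830812-17830879, plus strand) lay beside 1 domain of 4025 bp at Spaca6, so let-7 and miR-125 seeds occur together there. The miR-125b hairpin (chr9:41581926-41582002, plus strand) lay inside a domain of 3471 bp at its host gene Mir100hg. The miR-9 hairpin of Mir9-3 (chr7:79505264-79505353, plus strand) lay inside a domain of 5047 bp.

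The promoters shown run from 250 bases before to 50 bases after the start site (RefSeq, GRCm38.p6), and CG dinucleotides are in capitals. They cover the range of CpG content among the domains named later: 3 of the widest, 1 neuronal potassium channel gene, and Btbd3, which takes part in the comparison of SDS10 with control.
Meis2: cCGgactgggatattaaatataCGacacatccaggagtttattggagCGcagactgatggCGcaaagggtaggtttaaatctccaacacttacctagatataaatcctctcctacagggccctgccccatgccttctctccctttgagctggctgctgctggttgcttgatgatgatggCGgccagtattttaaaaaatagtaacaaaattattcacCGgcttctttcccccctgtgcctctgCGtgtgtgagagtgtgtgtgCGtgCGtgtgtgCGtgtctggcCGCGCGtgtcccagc
Spry2: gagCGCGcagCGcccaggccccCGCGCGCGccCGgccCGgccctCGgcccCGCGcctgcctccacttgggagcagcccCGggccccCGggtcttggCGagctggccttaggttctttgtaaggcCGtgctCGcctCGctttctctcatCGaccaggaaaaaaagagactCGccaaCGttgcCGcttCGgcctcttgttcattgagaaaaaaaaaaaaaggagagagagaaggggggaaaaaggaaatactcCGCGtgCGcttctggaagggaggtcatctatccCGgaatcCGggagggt
Nr4a3: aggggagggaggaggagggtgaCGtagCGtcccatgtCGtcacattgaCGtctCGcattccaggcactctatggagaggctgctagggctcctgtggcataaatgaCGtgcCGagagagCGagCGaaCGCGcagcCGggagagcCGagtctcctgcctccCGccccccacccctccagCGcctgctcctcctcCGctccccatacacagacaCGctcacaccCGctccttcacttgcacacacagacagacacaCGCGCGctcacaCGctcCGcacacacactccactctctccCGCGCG
Btbd3: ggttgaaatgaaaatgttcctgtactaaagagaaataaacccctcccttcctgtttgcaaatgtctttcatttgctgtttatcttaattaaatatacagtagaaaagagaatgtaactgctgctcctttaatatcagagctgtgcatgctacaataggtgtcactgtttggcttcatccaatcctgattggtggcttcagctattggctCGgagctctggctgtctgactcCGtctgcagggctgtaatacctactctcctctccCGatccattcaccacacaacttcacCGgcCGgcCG
Kcnc1: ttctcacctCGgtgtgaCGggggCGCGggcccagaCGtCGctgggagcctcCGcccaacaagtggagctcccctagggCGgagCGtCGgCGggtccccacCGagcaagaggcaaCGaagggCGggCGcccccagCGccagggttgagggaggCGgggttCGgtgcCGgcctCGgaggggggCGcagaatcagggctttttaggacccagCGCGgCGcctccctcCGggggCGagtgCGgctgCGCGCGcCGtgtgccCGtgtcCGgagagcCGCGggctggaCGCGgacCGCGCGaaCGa
Meis2 (chr2:116064570-116064869, minus strand) holds 13 CG, Spry2 (chr14:105896770-105897069, minus strand) 28, and Nr4a3 (chr4:48045055-48045354, plus strand) 26. Btbd3 (chr2:138278243-138278542, plus strand) holds 6 and Kcnc1 (chr7:46396218-46396517, plus strand) 41. The observed over expected CpG ratio was 0.408 in the Btbd3 window and 0.996 in the Kcnc1 window, so a wide domain was present over both a CpG-poor and a CpG-rich start. From the Kcnc1 start the domain reached 159 bp upstream and 2439 bp downstream, and from the Btbd3 start 669 bp upstream and 2447 bp downstream. The Meis2 domain was near symmetric, with 3419 bp upstream and 3165 bp downstream.

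Over 398 promoters of 330 genes inside wide domains, the median was 27 CG per window, against 25 inside intermediate regions (spans from 1000 bp up to the threshold of 2500 bp), 22 inside any called region and 13 over all 21263 promoters of the table. The CpG ratio was above 0.6 in 80.4% of the promoters in wide domains, against 76.9% in intermediate regions and 47.6% of all promoters. The letters GGGCGG, the core bound by SP family factors, stood on either strand in 77.9% of them and in 46.2% of all promoters. TATAAA stood in 4.77% against 12.6% of all promoters, and CCAAT in 26.9% against 38.2%. The cyclic-AMP response element TGACGTCA stood in 1.51% against 2.23%, and the E-box CACGTG in 7.54% against 7.84%. In intermediate regions GGGCGG stood in 75.5% of promoters, TATAAA in 4.59% and CCAAT in 24.7%, close to the shares in wide domains. GGGCGG and CpG count share letters, and all these shares describe letters in a window of 300 bases.

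The span of the 583 domains ran from 2500 to 7935 bp, with a median of 2946 bp and quartiles of 2668.5 and 3414 bp. They held 11 to 39 summits, with a median of 17. The threshold cut through a continuous range: 90 domains lay within 100 bp above it and 94 regions within 100 bp below it. Domains just inside had a median (mean over libraries) of 59.1 normalised reads per summit in SDS10, 57.5 in SDS30 and 58.3 in control, against 61.3, 58.2 and 60.2 just outside.

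Pcdh7, which codes for a protocadherin, a cell adhesion protein of neurons, lay under the widest domain (chr5:57714605-57722540, 7935 bp, 39 summits). Its summed H3K4me3 was 1899.7, 2737, 2222, 1963 and 2009 normalised reads in SDS10, 2521, 1907, 1784, 1974 and 2012 in SDS30 and 1678, 2374 and 2033 in control. The highest library was SDS10 replicate 2, and all 3 groups overlapped. Flrt2, which codes for a membrane protein that guides axons and migrating neurons, had 6843 bp (chr12:95691756-95698599), and its sums were 2059, 2456, 2088, 2026 and 1765 normalised reads in SDS10, 2444, 1792, 2001, 1853 and 2063 in SDS30 and 1789, 2048 and 1874 in control. All 3 groups overlapped there too. Smad7, an inhibitor of TGF-beta signalling on chromosome 18, followed with 6790 bp.

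Meis2, a homeobox transcription factor, had 6584 bp (chr2:116061454-116068038) and sums of 1476, 2115, 1523, 1435 and 1619 normalised reads in SDS10, 1845, 1512, 1388, 1474 and 1535 in SDS30 and 1339, 1517 and 1373 in control. SDS10 replicate 2 stood far above the other SDS10 libraries there. Spry2, an inhibitor of receptor tyrosine kinase signalling induced by growth factors, had 5999 bp (chr14:105892886-105898885) and sums of 1837, 2054, 1719, 1743 and 1695 normalised reads in SDS10, 1876, 1484, 1576, 1566 and 1753 in SDS30 and 1646, 1603 and 1608 in control. Every SDS10 library lay above every control library at Spry2, and SDS30 spanned both. Nr4a3, an orphan nuclear receptor of the immediate early class, had 5858 bp (chr4:48042541-48048399), and its group means were 1804 ± 42.4 normalised reads in SDS10, 1802 ± 73.2 in SDS30 and 1768 ± 101 in control (SD). The groups overlapped at Nr4a3, and its SDs were small relative to the means.

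Glul, which codes for glutamine synthetase of astrocytes, had 5261 bp (chr1:153899044-153904305) and means of 1341 ± 54.0 normalised reads in SDS10, 1402 ± 135 in SDS30 and 1397 ± 65.4 in control. Bcl11a, a zinc finger repressor of cortical neurons, had 5104 bp (chr11:24075857-24080961) and means of 1535 ± 196 normalised reads in SDS10, 1398 ± 109.8 in SDS30 and 1449 ± 129.9 in control. Trim8, a ubiquitin ligase, had 4824 bp, and Bcl2l1, which codes for the survival protein Bcl-xL, had 4784 bp. The noncoding domain over Malat1, a nuclear RNA of most cells, and Mascrna, the small RNA cut from its end, spanned 6167 bp (chr19:5796188-5802355). It held 1972, 1828, 1908, 1972 and 1866 normalised reads in SDS10, 1804, 1885, 2004, 1824 and 1482 in SDS30 and 1830.0, 1468 and 1781 in control, and control replicates 2 and 3 lay below every SDS10 library, as did SDS30 replicates 1, 4 and 5.

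Wide domains were not higher per summit than the next narrower class. Per summit, the wide domains had group means from 21.3 to 95.2 normalised reads in SDS10 (median 59.1), 19.1 to 92.1 in SDS30 (56.7) and 24.5 to 95.3 in control (57.6). Intermediate regions had a median of 59.95 reads per summit in SDS10, 57.7 in SDS30 and 59.5 in control, close to the 58.9, 57.2 and 58.1 of the wide domains. Regions under 1000 bp with 2 or more summits had 42.4, 43.1 and 41.9, and regions of 1 summit 20.4, 22.3 and 20.9. Spans were called on these same libraries, so these levels are a description. Smarca2, which codes for the BRM ATPase of chromatin remodelling complexes, had the highest level per summit in control libraries (95.2 in SDS10, 92.1 in SDS30, 95.3 in control) at a span of 3306 bp. It was followed by Zmiz1, a coregulator of transcription (86.9, 84.0 and 91.2), and Ctbp2, a corepressor (84.9, 76.6 and 88.7). The domain at Zdhhc14, a palmitoyltransferase, had 85.6, 85.3 and 86.7, and that at Tshz3, a zinc finger factor, 87.1, 85.0 and 85.7.

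Nearly all wide domains lay at genes, as did intermediate regions. Of the 583, 569 had a protein-coding gene within 2 kb (97.6%, against 96.2% of intermediate regions and 82.0% of all regions). Of these 569, 515 had exactly 1. Only noncoding genes lay at 12 domains, and 2 had none. The wide domains covered 639 of the 15248 protein-coding genes with a called region (4.19%). The count of genes overstates the count of domains, because 19 clustered gamma protocadherin genes share 1 domain on chromosome 18 and 54 domains lie at more than 1 gene. Genes at a wide domain had a median length of 65846 bp (quartiles 16923.5 and 157138 bp), against 24075 bp (10010 and 57801 bp) for other genes with a region. There were 9 genes with 2 wide domains each: Abr, Brd2, Fgf9, Gse1, H2-DMa, Nol4l, Tcf4, Tnrc18 and Zfp608. Brd2 and H2-DMa are neighbours and share theirs. By chromosome, 1.87% of called regions were wide on chromosome 18 and 0.225% (3 of 1333) on chromosome X.

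Transcription factors of excitatory neuron identity had the highest share among the lists: 13 of the 30 (43.3%) lay at a wide domain, and the median of the list's widest spans was 2263.5 bp, against 871 bp over all protein-coding genes. Among the 13 were Nfib and Nfia (nuclear factor I proteins), Cux1 (an upper-layer neuron factor), Lmo4, Pou3f2, Pou3f3, Nr4a2, Etv1, Mef2c, Neurod2, Rorb and Emx2. Nfib had 4140 bp, Cux1 3987 bp, Lmo4 3917 bp and Pou3f2 3858 bp. Not every such factor had a wide domain. Fezf2, the selector gene of subcerebral projection neurons, had 524 bp, Neurod6 420 bp, Bcl11b 775 bp and Tbr1 1335 bp. The list was chosen with earlier results known and its share has no test here.

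Among genes of neuronal function, 9 of 77 on the synaptic and neuronal list (11.7%, median widest span 1623 bp) had a wide domain. These were Nrxn2, with 4560 bp, and Nlgn2, a presynaptic and a postsynaptic adhesion gene, Gria2 (AMPA receptor), Gabbr1 (GABA-B receptor), Cacna1c (calcium channel), Kcna1 and Kcna2 (potassium channels), Dlgap4 (scaffold) and Ank3 (axon initial segment). The labelled tissue was checked against its markers, and all 16 excitatory neuron markers had a called region. All 20 markers of striatal neurons, a neighbouring tissue, had one too, so this check cannot tell the tissues apart. Of the 16 excitatory markers, 2 had a wide domain (Gria2 and Nptx1), while Slc17a7, the vesicular glutamate transporter, had 614 bp and Camk2a 359 bp. Of 27 inhibitory neuron markers with a region 3 did (Maf, Erbb4 and Kcnc1), while Gad1, the GABA-making enzyme, had 316 bp and Pvalb 208 bp.

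Among glial genes, astrocyte markers gave 3 of 26 (Glul, Nfia and Ntrk2, median widest span 1629.5 bp) and oligodendrocyte lineage markers 1 of 20 (Sox8). Microglia markers gave 2 of the 13 with a region, among them the factor Sall1. The other 13 of the 26 microglia markers had no called region, among them Cx3cr1, Csf1r and Aif1. Endothelial and mural markers gave 1 of 26 (Lef1), and markers of striatal neurons, a neighbouring tissue, 1 of 20 (Meis2).

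Activity-regulated genes had 6 of 40 (15%): the nuclear receptors Nr4a1, Nr4a2 and Nr4a3, the synaptic immediate early gene Arc, the phosphatase Dusp6 and the stress factor Atf3. Fos had 1498 bp, Egr1 1855 bp and Npas4 1003 bp. Glucocorticoid-responsive genes had 3 of 28: Nr3c2, the mineralocorticoid receptor (3279 bp), Zbtb16 (3467 bp) and Klf9 (3938 bp). Nr3c1, the glucocorticoid receptor, missed the threshold at 2493 bp. The H3K4 methylation machinery had 2 of 41, the methyltransferase Kmt2d and the demethylase Kdm2b, and Setd1b had 2496 bp. None of 76 cytosolic ribosomal protein genes (median widest span 804 bp) and none of 31 proteasome genes (700.0 bp) lay at a wide domain. Of 74 developmental transcription factors, many of them silent in cortex, 2 did (Sox11 and Sox21), with a median widest span of 510.0 bp.

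**Figure D1:**
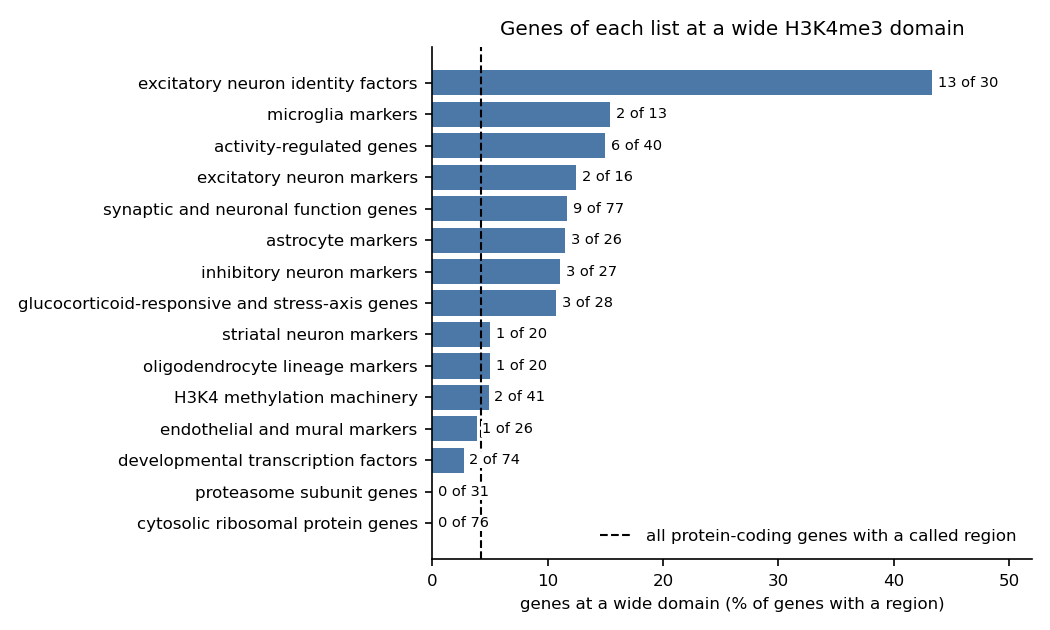
Share of the genes of each list that lay at a wide domain, in percent of the list's genes with a called region; the count stands beside each bar and the dashed line marks all protein-coding genes (4.19%). Excitatory neuron identity factors had 13 of 30, and ribosomal protein and proteasome genes none.

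Wide domains extended from the start site into the gene. A RefSeq coding start of the promoter table lay inside 316 of them, and 252 held exactly 1 start. In those 252 the domain reached a median of 762.5 bp upstream of the start (quartiles 434 and 1121 bp) and 2276.5 bp downstream (1838 and 2682 bp), and 223 (88.5%) reached further downstream. The same share in intermediate regions was 88.6%. The strongest summit lay a median of 309 bp downstream of the start, and on the downstream side in 190 (75.4%). In 17 domains 2 genes started, in 16 of them on opposite strands.

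Along the gene, mean H3K4me3 per summit in the 250 bp after the start was 76.9 ± 7.83 normalised reads in SDS10, 69.7 ± 5.90 in SDS30 and 75.9 ± 2.66 in control (SD over libraries, n = 5, 5 and 3). From 250 to 500 bp it was 76.6 ± 8.00, 71.6 ± 5.84 and 77.0 ± 2.72. At 2500 to 2750 bp it was 37.8 ± 2.42, 38.6 ± 2.32 and 36.0 ± 1.42. The intervals of mean ± SD overlapped between groups at each of these distances. Each domain was also cut into 10 equal parts, and the median over domains was taken in each library. The mean of these medians over libraries was 36.7 in SDS10, 37.9 in SDS30 and 36.1 in control for part 1. It was 67.6, 64.9 and 66.1 for part 6 and 37.7, 39.1 and 37.1 for part 10. Parts 1 and 10 hold the first and last summits, where the called region ends.

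**Figure D2:**
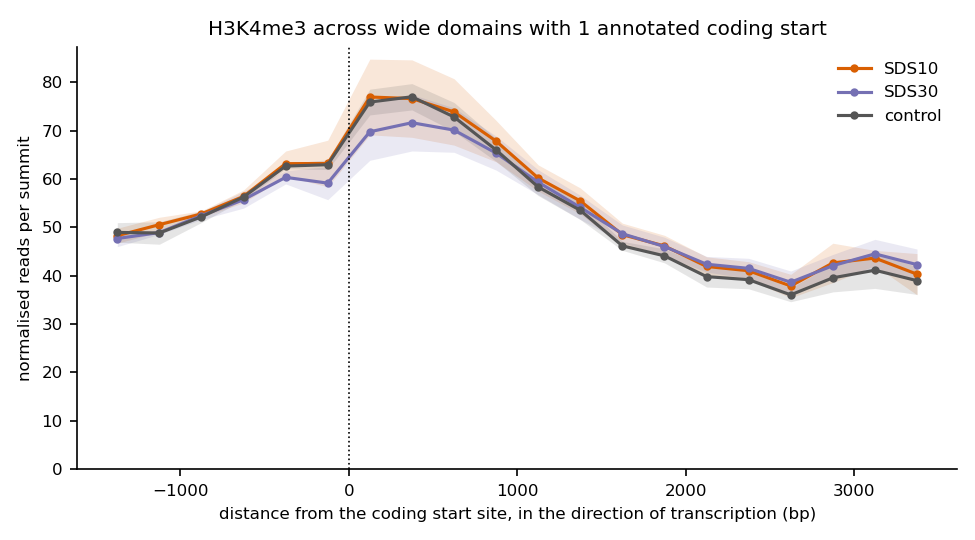
Mean H3K4me3 per summit (normalised reads) against distance from the start site in bp, for wide domains with 1 coding start, by group. Shaded bands are the SD over libraries. All 3 groups peaked within 500 bp downstream and were at about 36.0 to 38.6 reads at 2500 to 2750 bp and 41.1 to 44.5 at 3000 to 3250 bp. Far bins hold fewer domains (87 and 39 there, against 246 in the first 250 bp).

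The first and last summits are where a called region ends. A lower level there may partly reflect how regions were called, so the shapes of this paragraph are a description. The strongest summit was the first or last of the domain in 36 of 583 domains and lay in the middle 50% of the length in 347. Inner summits averaged above the outer pair: the median log2 ratio over wide domains was 0.80 ± 0.09 in SDS10, 0.72 ± 0.07 in SDS30 and 0.80 ± 0.03 in control (SD over libraries). Group means of single domains ran from -0.94 to 1.99 in SDS10, -0.68 to 1.85 in SDS30 and -0.89 to 2.05 in control. Kif3c, Bbx and Bcl2l1 were among those with stronger ends than middles, with control means of -0.83, -0.54 and -0.47.

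The libraries held 4512817 to 10887911 reads on summits, and wide domains took 7.69 ± 0.24% of them in SDS10, 7.60 ± 0.26% in SDS30 and 7.62 ± 0.13% in control (SD). Replicate 2 of SDS10 stood apart. Its share was 8.10%, and the median of its centred log2 sums over wide domains was 0.16, against -0.03 to 0.02 in the other SDS10 libraries. The rise was not particular to wide domains. In the same library the median was 0.15 for cytosolic ribosomal protein genes and 0.13 for proteasome genes, none of them at a wide domain. It was 0.10 over the regions of all protein-coding genes and -0.03 over all called regions. SDS30 replicate 2 had the lowest share (7.28%) and a median of -0.11 over wide domains, against -0.09 over the regions of all protein-coding genes. Medians of the summed value over the wide domains are given with and without these libraries. Markers moved with the libraries: the 16 excitatory neuron markers, all with a called region, had a median centred log2 sum of 0.61 in SDS10 replicate 2, -0.12 to 0.02 in the other SDS10 libraries, -0.22 to 0.38 in SDS30 and -0.38 to 0.22 in control. The median summed level of that list ran from 244 to 453 normalised reads in SDS10, 238 to 362 in SDS30 and 218 to 335 in control. The 26 endothelial and mural markers had -0.28 in SDS10 replicate 2, -0.32 in SDS30 replicate 1 and 0.25 in control replicate 1. This pattern was not particular to them: the 73 regions of developmental transcription factors had -0.31, -0.40 and 0.19 in the same libraries. In SDS10 replicate 2 the inhibitory neuron markers had 0.004 and the astrocyte markers -0.07. The part of such differences in any result below was not tested.

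**Figure D3:**
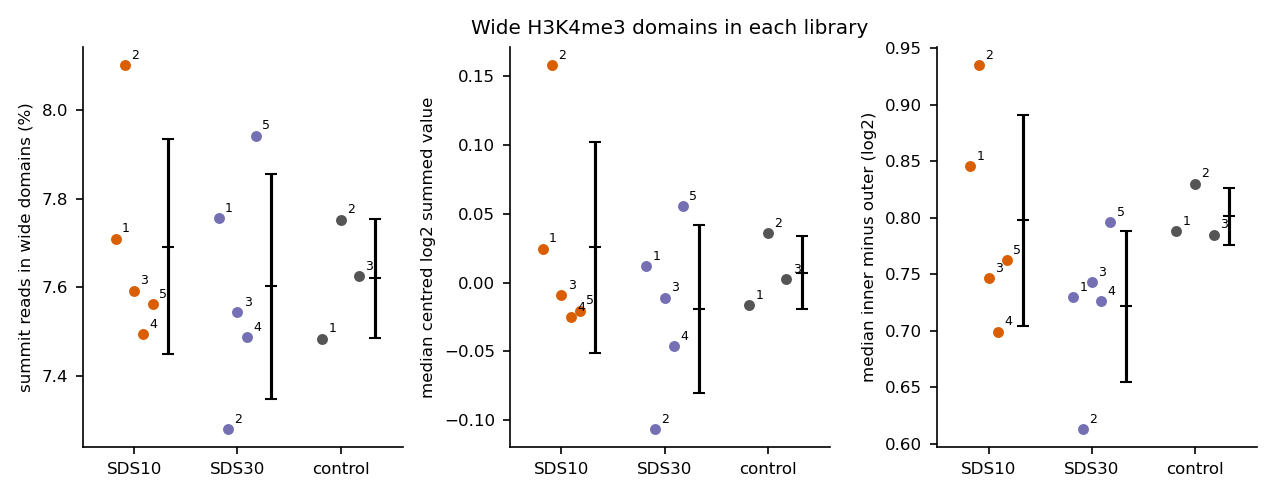
Wide-domain H3K4me3 by library in SDS10, SDS30 and control, 1 point per library with the group mean and SD. SDS10 replicate 2 lies highest and SDS30 replicate 2 lowest in summed level over wide domains.

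In summed value, wide domains were measured with a smaller error than most regions. All 583 passed the filter on low values, which 48174 regions passed. The median SE of the log2 difference was 0.09 for wide domains in SDS10 against control and 0.26 over all regions. For the summed value, the 95% interval lay within 1.5-fold of no difference in 573 wide domains (98.3%) for SDS10 against control, in 579 (99.3%) for SDS30 against control and in 582 (99.8%) for SDS30 against SDS10. The same held for 40.6%, 41.5% and 47.8% of all regions. In all 583 the summed-value interval lay within 2-fold in each comparison. In shape the median SE in SDS10 against control was 0.187 for wide domains and 0.187 over regions with 3 or more summits. The shape interval lay within 1.5-fold in 65.2%, 60.9% and 81.0% of wide domains in the same order. Over those regions it did so in 66.1%, 64.3% and 78.1%. Without the variance trend of the fit, 4, 0 and 4 wide domains had an unadjusted p under 0.05 in summed value. With it there were 28, 17 and 43.

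After 10 days of defeat, the domains with the smallest p in SDS10 against control were those of Fem1c, Tcf4 and Btbd3 on the higher side and Sphk1, Klhl21 and Kif3c on the lower. None of the 583 passed the adjusted threshold of 0.05 (limma, Benjamini-Hochberg over 48174 regions, lowest adjusted p 0.9996). At an unadjusted p under 0.05 there were 28 wide domains (4.80%, against 3.14% of all regions). In 27 of them SDS10 was higher (1.88% of all regions) and in 1 lower (1.26%). Without control replicate 3 the count was 17. On the recovered reads edgeR and DESeq2 also called none, and 20 and 18 domains passed the unadjusted threshold. The SDS10 and control libraries did not overlap in 22 wide domains (3.77%, against 3.24% of all regions), 18 higher (1.68% of all regions) and 4 lower (1.56%).

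Fem1c, a substrate receptor of a cullin ubiquitin ligase on chromosome 18, held 1119, 1136, 1105, 1081 and 1118 normalised reads in SDS10, 1047, 1057, 1122, 1052 and 1007 in SDS30 and 1069, 834 and 859 in control. Every SDS10 library lay above every control library, though control replicate 1 came close. The log2 difference of SDS10 against control was 0.28 (SE 0.08, unadjusted p 0.00130), and it ran from 0.21 to 0.39 with 1 library left out. Tcf4, a basic helix-loop-helix factor whose loss causes Pitt-Hopkins syndrome in humans, held 989, 1001, 1042, 1060.5 and 1051 normalised reads in SDS10, 1002, 953, 1000.2, 857 and 675 in SDS30 and 973, 658 and 740.5 in control at the wider of its 2 domains. All 5 SDS10 libraries exceeded the controls, of which replicate 1 was again the highest, and the difference was 0.40 (SE 0.12, unadjusted p 0.00266).

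Btbd3, which in mouse cortex orients dendrites toward active inputs, held 744, 837, 742, 852 and 672 normalised reads in SDS10, 807, 658, 706, 705 and 664 in SDS30 and 660.3, 598 and 638 in control (chr2:138277824-138280940, over the CpG-poor promoter printed above). Here too the SDS10 and control libraries did not overlap, and SDS30 lay between them with overlap on both sides. The difference of SDS10 against control was 0.28 (SE 0.09, unadjusted p 0.00586), or 0.25 without SDS10 replicate 2. Sphk1, sphingosine kinase 1, held 551, 551, 543, 507 and 526 normalised reads in SDS10, 486, 622, 597, 696 and 769.5 in SDS30 and 646, 608 and 665 in control (chr11:116531512-116534103). Its SDS10 libraries were all below the controls and the SDS30 libraries spread over both, with a difference of -0.26 (SE 0.11, unadjusted p 0.0292) for SDS10 against control and of 0.23 (SE 0.09, unadjusted p 0.0255) for SDS30 against SDS10. Klhl21 differed by -0.14 (SE 0.07, unadjusted p 0.0528) and Kif3c, a kinesin motor, by -0.13 (SE 0.07, unadjusted p 0.0852).

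The median log2 difference over all wide domains was 0.02 in SDS10 against control, with 337 of 583 (57.8%) higher, against 0.0023 and 50.5% over all regions. Intermediate regions had 0.0066 with 52.6% higher, and the 94 regions within 100 bp below the threshold 0.014 with 57.4% higher. Without SDS10 replicate 2 the median over wide domains was -0.01 with 259 higher, so the direction rested on that library. The difference of single domains ran from -0.26 to 0.40.

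In shape, SDS10 against control gave no called domain either (lowest adjusted p 0.9996, limma), with 25 at an unadjusted p under 0.05 (4.29%, against 3.72% of 19974 regions with 3 or more summits). Of these, 12 were higher (1.54% of regions) and 13 lower (2.18%). In 13 domains the libraries did not overlap (2.23%, against 3.02% of regions), 5 higher (1.22%) and 8 lower (1.8%). The median difference was -0.01 with 279 of 583 higher (47.9%, against 47.5% of regions), and it ran from -0.02 to 0.02 with 1 library left out. Ctbp2 had the smallest p on the higher side (chr7:133121662-133124683): its inner to outer log2 ratio was 1.17, 1.32, 1.34, 1.41 and 1.30 in SDS10, 1.05, 0.95, 0.86, 0.64 and 0.80 in SDS30 and 0.88, 0.87 and 0.77 in control. All SDS10 libraries lay above all control libraries and above all SDS30 libraries, with differences of 0.47 (SE 0.15, unadjusted p 0.00610) for SDS10 against control and -0.45 (SE 0.13, unadjusted p 0.00275) for SDS30 against SDS10. Neto1, an auxiliary subunit of kainate receptors, differed by 0.51 (SE 0.17, unadjusted p 0.00730). When summits in the middle 50% of the length were set against those in the outer 25% at each end, the sign of Neto1 turned to -0.04. Ctbp2 then differed by 0.08 for SDS10 against control and by -0.03 for SDS30 against SDS10.

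On the lower side, the domain at Afdn, the cell junction adaptor afadin, and the neighbouring Tcte2 had ratios of 0.72, 0.86, 0.39, 0.24 and 0.47 in SDS10, 0.76, 0.37, 0.88, 0.49 and 0.91 in SDS30 and 1.00, 1.18 and 1.16 in control. Both defeat groups lay below every one of the same controls, by -0.58 (SE 0.17, unadjusted p 0.00287) for SDS10 and -0.43 (SE 0.17, unadjusted p 0.0201) for SDS30. With the middle 50% the differences at Afdn were -0.13 and -0.28. Erbin, a scaffold that binds the receptor ERBB2, had ratios of 0.93, 1.03, 0.81, 0.96 and 0.86 in SDS10, 1.19, 0.47, 0.68, 0.71 and 1.58 in SDS30 and 1.06, 2.15 and 1.73 in control. The 3 controls spread more widely there than the SDS10 libraries, which lay below all of them. The differences were -0.73 (SE 0.23, unadjusted p 0.00381) for SDS10 and -0.72 (SE 0.23, unadjusted p 0.00424) for SDS30, against the same controls. Without control replicate 2 they were -0.48 and -0.47, and with the middle 50% -0.14 and -0.16.

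Pcdh7, the widest, also had ratios lower than control in both comparisons: 0.71, 1.19, 0.78, 0.95 and 0.69 in SDS10, 1.04, 0.69, 0.67, 1.04 and 1.62 in SDS30 and 1.14, 2.20 and 1.27 in control. Control replicate 2 was the highest and control replicates 1 and 3 lay inside the range of the defeat libraries, with differences of -0.67 (SE 0.25, unadjusted p 0.0125) for SDS10 and -0.52 (SE 0.25, unadjusted p 0.0459) for SDS30 against the same controls. Without control replicate 2 they were -0.34 and -0.19, and with the middle 50% -0.04 and -0.21.

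After 30 days, the domains with the smallest p in SDS30 against control were those of Fem1c, Gadd45g and Zfp608 on the higher side and Ctbp2, E2f3 and Bbx on the lower. No wide domain passed the adjusted threshold (limma, lowest adjusted p 0.9999). At an unadjusted p under 0.05 there were 17 (2.92%, against 2.45% of all regions), 4 higher (1.43% of all regions) and 13 lower (1.01%). edgeR gave 9 and DESeq2 12 at that threshold, and neither called any. Libraries did not overlap in 12 domains (2.06%, against 2.34% of all regions), 1 higher (1.16%) and 11 lower (1.18%).

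At Ctbp2 the sums were 1334, 1280.3, 1272, 1199 and 1279.8 normalised reads in SDS10, 1099, 1028, 1236, 1105 and 1274 in SDS30 and 1283, 1409 and 1298 in control. Every SDS30 library lay below every control library and only the 3 lowest of SDS30 lay below all of SDS10, with differences of -0.21 (SE 0.07, unadjusted p 0.00750) for SDS30 against control and -0.15 (SE 0.06, unadjusted p 0.0247) for SDS30 against SDS10. E2f3, a cell cycle transcription factor, had sums of 1311, 1351, 1223, 1219.7 and 1275 normalised reads in SDS10, 1190.2, 940.3, 1147, 1051 and 1220.2 in SDS30 and 1221, 1319 and 1343 in control. The highest SDS30 library lay just under the lowest control library and SDS10 covered the control range, and SDS30 differed from control by -0.23 (SE 0.08, unadjusted p 0.00839) and from SDS10 by -0.21 (SE 0.07, unadjusted p 0.00607). Bbx, an HMG-box factor, differed by -0.22 (SE 0.07, unadjusted p 0.00841). Under cyclic loess scaling the differences of SDS30 against control were -0.13 at Ctbp2, -0.14 at E2f3 and -0.13 at Bbx. Those against SDS10 were then -0.06 at Ctbp2 and -0.11 at E2f3.

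Gadd45g, a stress-induced protein linked to DNA demethylation, held 995, 984, 1036, 1037 and 1027 normalised reads in SDS10, 934, 1022, 1042, 1114 and 1139 in SDS30 and 955, 913 and 911 in control. Its 3 control libraries lay below all SDS10 libraries and below 4 of 5 SDS30 libraries, and SDS30 differed from control by 0.18 (SE 0.07, unadjusted p 0.0210). Fem1c differed by 0.21 (SE 0.08, unadjusted p 0.0124) and Zfp608 by 0.19 (SE 0.08, unadjusted p 0.0278) against the same controls. Without control replicate 1 the Fem1c difference was 0.32.

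The median difference of SDS30 against control over wide domains was -0.02, with 237 of 583 higher (40.7%, against 54.8% of all regions). Without SDS30 replicate 2 it was 0.01 with 309 higher, and under cyclic loess scaling 0.06 with 462 higher, so no direction of the group as a whole is given. The count at an unadjusted p under 0.05 was 27, 10 and 6 when control replicates 1, 2 and 3 were left out in turn, and it was 9 without SDS30 replicate 2 and 41 without SDS30 replicate 5.

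Shape in SDS30 against control gave 40 domains at an unadjusted p under 0.05 (6.86%, against 4.44% of regions), 7 higher (1.45% of regions) and 33 lower (2.99%), and none passed adjustment (limma, lowest adjusted p 0.9998). That count was 22 without SDS30 replicate 2 and 24 without control replicate 3. Libraries did not overlap in 18 (3.09%, against 3.47% of regions), 3 higher (1.36%) and 15 lower (2.11%). Over all 583 the median difference was -0.08 with 200 higher (34.3%, against 44.7% of regions). That median compares with -0.02 over all regions with 3 or more summits and -0.05 in intermediate regions. In the 94 regions within 100 bp below the threshold it was -0.12 with 31.9% higher. The median over wide domains ran from -0.10 to -0.04 with 1 library left out. With the middle 50% against the outer 25% it was -0.03 with 244 higher. Nrg3, a ligand of the receptor ERBB4, had ratios of 0.55, 0.63, 0.34, 0.86 and 0.65 in SDS10, 0.46, 0.11, 0.24, 0.41 and 0.78 in SDS30 and 0.95, 0.93 and 1.09 in control. Both defeat groups lay below every control library, and SDS30 differed by -0.59 (SE 0.16, unadjusted p 0.00150), or by -0.08 with the middle 50%. Erbb4 itself also had a wide domain (chr1:69105351-69108537), and its ratio was higher by 0.47 (SE 0.20, unadjusted p 0.0256) in SDS30 and by 0.49 (SE 0.20, unadjusted p 0.0211) in SDS10 against the same controls, with overlap of the groups. With the middle 50% these were 0.16 and 0.05.

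Glcci1, named for its induction by glucocorticoids, had ratios of -0.11, -0.39, 0.13, -0.37 and -0.09 in SDS10, 0.35, 0.35, 0.15, 0.31 and 0.13 in SDS30 and -0.06, -0.32 and -0.17 in control. All SDS30 libraries lay above all control libraries and above 4 of 5 SDS10 libraries, and the fifth reached 0.13. The differences were 0.44 (SE 0.16, unadjusted p 0.00996) for SDS30 against control and 0.42 (SE 0.14, unadjusted p 0.00488) for SDS30 against SDS10. At Glul the ratios were 1.18, 0.73, 0.97, 1.77 and 0.97 in SDS10, 0.98, 0.65, 0.74, 0.72 and 0.91 in SDS30 and 1.32, 1.20 and 1.40 in control, with every SDS30 library below every control library, by -0.51 (SE 0.20, unadjusted p 0.0161), which was -0.03 with the middle 50%. The Glcci1 differences were 0.33 and 0.37 in that setting.

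**Figure D4:**
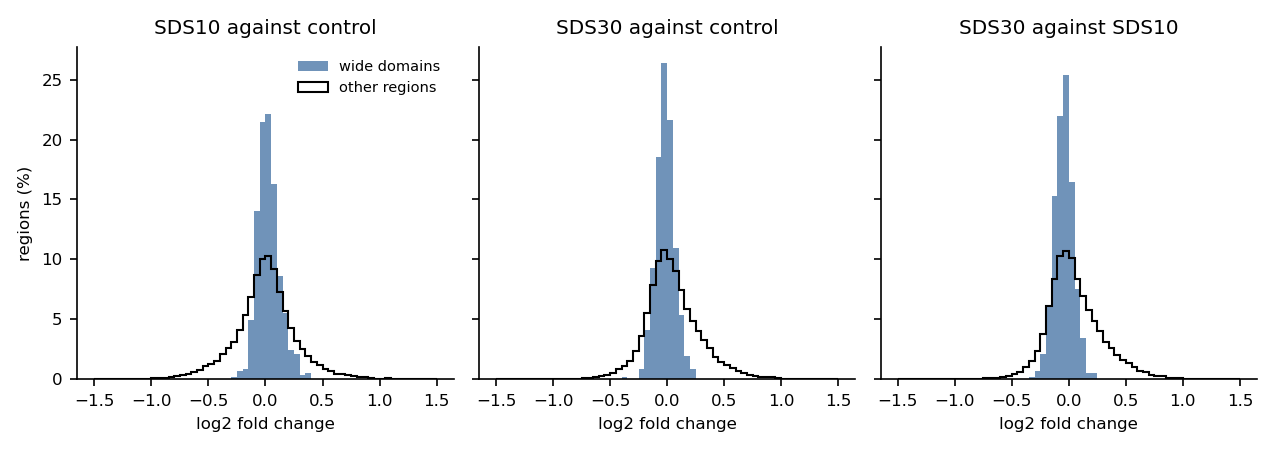
Log2 differences in the summed value of wide domains for SDS10 against control, SDS30 against control and SDS30 against SDS10, each beside the other regions tested. Values of the wide domains lie between -0.38 and 0.40 in all 3 comparisons.

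Between 30 and 10 days, the domains with the smallest p in SDS30 against SDS10 were those of Fbxo11, Atn1 and Epha7 on the lower side and Sphk1, Kif3c and Irs2 on the higher. No wide domain passed adjustment (limma, lowest adjusted p 0.981). At an unadjusted p under 0.05 there were 43 (7.38%, against 4.62% of all regions), 3 higher (2.52% of all regions) and 40 lower (2.09%). edgeR gave 30 and DESeq2 33 at that threshold, and neither called any. The count was 23 without SDS10 replicate 2, 28 without SDS10 replicate 1, 19 without SDS30 replicate 2 and 71 without SDS30 replicate 1. Libraries did not overlap in 2 domains, Fbxo11 and Atxn1 (0.343%, against 0.654% of all regions). Both were lower (0.303% of all regions) and none was higher (0.351%), and Atxn1 is named after its values were seen.

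Fbxo11, an F-box receptor of a ubiquitin ligase, held 949.9, 1132, 889, 918 and 887 normalised reads in SDS10, 854, 717, 849.8, 741 and 839.8 in SDS30 and 919.5, 969 and 826 in control. Every SDS30 library lay below every SDS10 library and SDS10 replicate 2 was the highest of all, and the difference was -0.25 (SE 0.08, unadjusted p 0.00401), or -0.19 without that library. Atn1, the corepressor atrophin 1, differed by -0.23 (SE 0.07, unadjusted p 0.00420), or -0.20 without it. Epha7, an ephrin receptor that shapes axons and dendrites, held 1069.6, 1526, 1157, 1123 and 1068 normalised reads in SDS10, 1164, 808, 983, 956 and 896 in SDS30 and 979.6, 1117 and 1013 in control (chr4:28812473-28816052). SDS10 replicate 2 stood far above all other libraries and SDS30 replicate 1 reached the SDS10 range, with a difference of -0.30 (SE 0.10, unadjusted p 0.00445), or -0.21 without SDS10 replicate 2. Irs2, an adaptor of the insulin receptor, differed by 0.15 (SE 0.07, unadjusted p 0.0395). Under cyclic loess scaling Atn1 differed by -0.16, Irs2 by 0.23 and Kif3c by 0.22.

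The median difference of SDS30 against SDS10 over wide domains was -0.04 with 166 of 583 higher (28.5%, against 53.8% of all regions). It was -0.01 with 258 higher without SDS10 replicate 2, -0.02 with 241 higher without SDS30 replicate 2 and 0.04 with 408 higher under cyclic loess scaling. Intermediate regions had -0.05 with 30.0% higher and regions of 1 summit 0.11 with 65.1% higher, each at 1 factor per library.

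Irs1, the other insulin receptor adaptor, had the smallest p in shape for SDS30 against SDS10, with inner to outer ratios of 1.58, 1.82, 1.45, 1.54 and 1.25 in SDS10, 1.09, 0.83, 1.01, 0.90 and 1.13 in SDS30 and 1.28, 1.05 and 1.45 in control. Every SDS30 library lay below every SDS10 library and the controls lay across both, with a difference of -0.54 (SE 0.14, unadjusted p 0.000730) and an adjusted p of 0.841 by limma. The difference was -0.16 with the middle 50%. At an unadjusted p under 0.05 there were 40 domains (6.86%, against 5.78% of regions), 6 higher (2.34% of regions) and 34 lower (3.44%). Libraries did not overlap in 3 (0.515%, against 0.801% of regions), 1 higher (0.451%) and 2 lower (0.35%). Over all 583 the median was -0.07 with 189 higher (32.4%, against 47% of regions), and it ran from -0.09 to -0.04 with 1 library left out. Intermediate regions had -0.05 with 40.1% higher, and the 94 regions within 100 bp below the threshold -0.07 with 35.1% higher. With the middle 50% the median over wide domains was -0.03 with 237 higher.

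**Figure D5:**
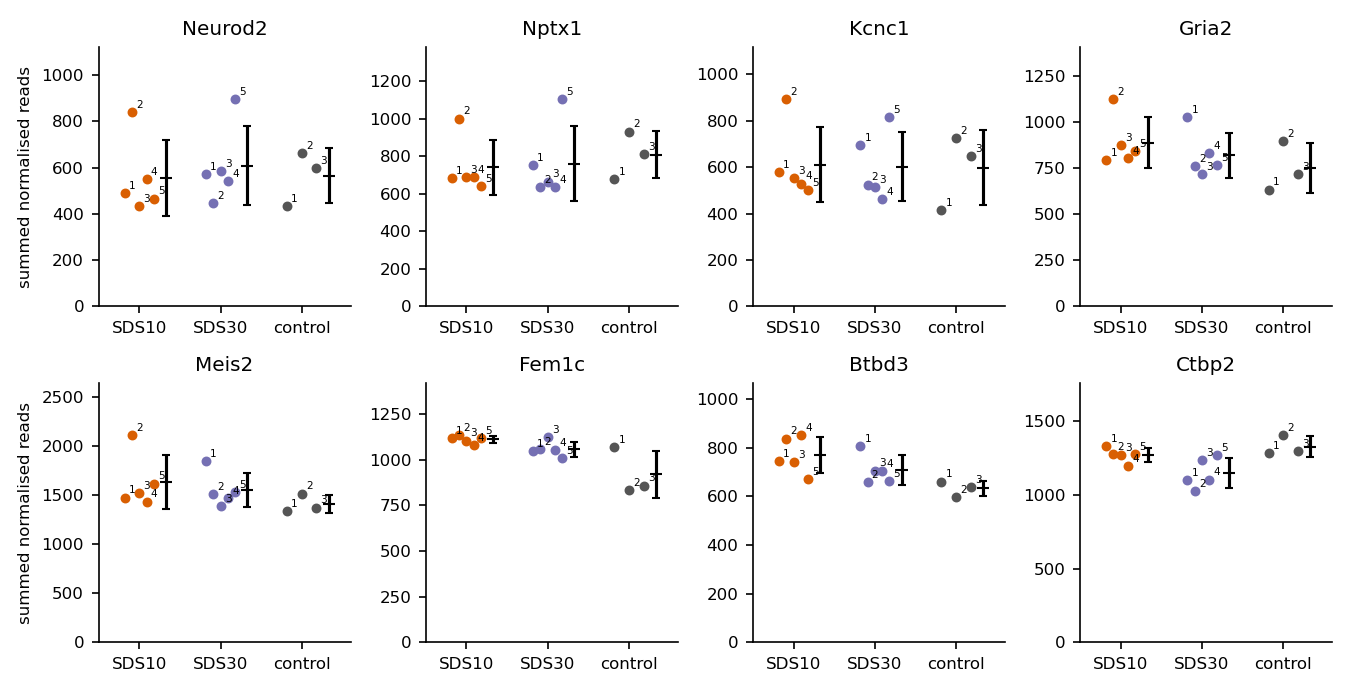
Summed H3K4me3 (normalised reads) of 8 wide domains in each library, in the order SDS10, SDS30, control, with the group mean and SD. At Neurod2, Nptx1, Kcnc1 and Gria2 replicate 2 of SDS10 lies above the other SDS10 libraries, while at Btbd3 and Fem1c all SDS10 libraries lie above all controls.

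Among the 30 excitatory identity factors, 5 regions had an unadjusted p under 0.05 in SDS10 against control and 5 in SDS30 against SDS10. SDS30 against control gave none, and no region passed adjustment. These are 16.7%, 16.7% and 0% of the list, against 2.57%, 6.27% and 2.85% of the 13317 regions of all protein-coding genes. The list's median differences were 0.06, -0.04 and -0.10, against 0.00, -0.04 and -0.05 over all protein-coding genes. The same list had a median centred log2 sum of 0.32 in SDS10 replicate 2 and of -0.03 to 0.01 in the other SDS10 libraries. Mef2c, a factor of activity-dependent synapse number, held 984, 1002, 827, 1038 and 869 normalised reads in SDS10, 879, 749.7, 906, 819.6 and 665 in SDS30 and 958, 567 and 724 in control with a difference of 0.36 (SE 0.13, unadjusted p 0.0102) for SDS10 against control. Control replicate 1 lay inside the SDS10 range, and the other controls lay below it. Leaving out control replicate 1 gave a difference of 0.55, and leaving out control replicate 2 gave 0.18. Lmo4, a LIM-only cofactor, held 1207, 1444, 1226, 1482 and 1235 normalised reads in SDS10, 1298, 1089, 1205, 1186 and 1029.7 in SDS30 and 1169.7, 1035 and 1158 in control, with no overlap between SDS10 and control and a difference of 0.23 (SE 0.09, unadjusted p 0.0132). Nfib differed by 0.22 (SE 0.09, unadjusted p 0.0219) and Etv1 by 0.23 (SE 0.10, unadjusted p 0.0315). Neurod2 differed by -0.04 (SE 0.19, unadjusted p 0.826) and Cux1 by -0.05 (SE 0.07, unadjusted p 0.496).

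Of the activity genes at wide domains, Dusp6 had the smallest p in SDS10 against control. The activity list had median differences of -0.02 for SDS10 and -0.04 for SDS30 against control and of -0.03 between SDS30 and SDS10, with 2, 2 and 4 of 40 (5%, 5% and 10%) at an unadjusted p under 0.05, against 2.57%, 2.85% and 6.27% over all protein-coding genes. Arc held 866, 984, 747, 772 and 698 normalised reads in SDS10, 893, 815, 773, 865 and 1066 in SDS30 and 837, 845 and 871 in control, and the narrow control range lay inside both defeat groups. Its difference was -0.08 (SE 0.10, unadjusted p 0.479) for SDS10 and 0.04 (SE 0.10, unadjusted p 0.682) for SDS30 against the same controls. Nr4a1 had means of 646 ± 47.5 normalised reads in SDS10, 685 ± 61.0 in SDS30 and 659 ± 24.4 in control and Nr4a2 of 1091 ± 36.1 normalised reads in SDS10, 1088 ± 59.3 in SDS30 and 1050.1 ± 30.2 in control (SD). Dusp6, which dephosphorylates ERK, held 1240.2, 1549.9, 1202, 1333 and 1274 normalised reads in SDS10, 1214, 967, 1232, 1169 and 1147 in SDS30 and 1238, 1049 and 1013 in control and differed by 0.26 (SE 0.09, unadjusted p 0.00880) for SDS10 against control and -0.20 (SE 0.08, unadjusted p 0.0174) for SDS30 against SDS10. Control replicate 1 and SDS10 overlapped there, and the second difference was -0.11 under cyclic loess scaling.

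Stress hormone genes at wide domains differed by at most 0.14 on the log2 scale against control, with Zbtb16 in SDS30 at 0.22 under cyclic loess scaling. Nr3c2 held 1518, 1584, 1438, 1489 and 1517 normalised reads in SDS10, 1513, 1346, 1419.8, 1402 and 1412 in SDS30 and 1414, 1303 and 1494 in control and differed by 0.11 (SE 0.06, unadjusted p 0.102) for SDS10 and 0.02 (SE 0.06, unadjusted p 0.791) for SDS30 against the same controls. Zbtb16, a zinc finger factor induced by glucocorticoids, had means of 1358 ± 84.5 normalised reads in SDS10, 1408 ± 65.4 in SDS30 and 1281 ± 45.1 in control. Its SDS30 libraries all lay above the controls, by 0.14 (SE 0.07, unadjusted p 0.0487). Klf9, a further target of the receptor, had means of 1653 ± 88.7 normalised reads in SDS10, 1629.5 ± 95.1 in SDS30 and 1632 ± 114 in control. Of the H3K4 machinery, Kmt2d differed by -0.01 (SE 0.09, unadjusted p 0.908) and Kdm2b by 0.01 (SE 0.07, unadjusted p 0.917) for SDS10 against control.

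At the synaptic domains named here the groups overlapped. Gria2 held 791, 1124, 873, 803 and 842 normalised reads in SDS10, 1023, 758, 716, 832 and 767 in SDS30 and 632, 896 and 718 in control, with SDS10 replicate 2 and SDS30 replicate 1 the highest. Kcnc1, whose promoter was the CpG-richest of those printed, held 577, 894, 553, 529 and 499 normalised reads in SDS10, 695, 525, 514, 464 and 814 in SDS30 and 416, 726 and 649 in control, and control replicate 1 was the lowest of all 13 libraries. Nrxn2 had means of 1189.6 ± 219 normalised reads in SDS10, 1142 ± 225 in SDS30 and 1139.5 ± 215 in control, Kcna2 of 946 ± 172 normalised reads in SDS10, 929 ± 137 in SDS30 and 919.8 ± 144 in control and Kcna1 of 821 ± 158 normalised reads in SDS10, 807 ± 103 in SDS30 and 829 ± 151 in control. Nptx1 held 682, 1001, 688, 689 and 642 normalised reads in SDS10, 755, 636, 665, 636 and 1106 in SDS30 and 681, 931 and 812 in control, with 1 high library in each defeat group. The excitatory marker values of the same libraries are those given above.

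Among the miRNA domains, that of Mir125b-1 and its host Mir100hg (chr9:41580865-41584336) held 755, 944, 992, 835 and 768 normalised reads in SDS10, 987, 817, 729.9, 780.2 and 598 in SDS30 and 590.4, 767 and 626 in control. Control replicates 1 and 3 lay below every SDS10 library, with a difference of 0.38 (SE 0.13, unadjusted p 0.00708) for SDS10 against control. The let-7i domain (chr10:122983384-122985985) held 615, 854, 679.6, 669 and 668 normalised reads in SDS10, 651, 622, 660.5, 553 and 586 in SDS30 and 636, 658 and 636 in control. Its controls lay close together and its highest library was SDS10 replicate 2, with a difference of -0.18 (SE 0.08, unadjusted p 0.0466) for SDS30 against SDS10, or -0.10 without that library and -0.11 under cyclic loess scaling. The domain at Spaca6 beside the let-7e and miR-125a hairpins (chr17:17825927-17829952), which lie just outside it, had means of 1524 ± 93.8 normalised reads in SDS10, 1549.8 ± 137 in SDS30 and 1489.8 ± 41.1 in control, with overlap of all groups. The Mir9-3 domain (chr7:79504128-79509175) had means of 1122 ± 284 normalised reads in SDS10, 1055 ± 171 in SDS30 and 1069 ± 239 in control, and a second wide domain of its host lay at chr7:79499075-79502858. Neat1, the architectural RNA of paraspeckles, had means of 735 ± 144 normalised reads in SDS10, 817 ± 163 in SDS30 and 771 ± 222 in control, and its lowest library was SDS10 replicate 2.

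The 2 wide domains with no annotated gene within 2 kb lay at chr15:85669867-85673058 and chr12:25098190-25101061. The first had means of 1178 ± 159 normalised reads in SDS10, 1104 ± 95.6 in SDS30 and 1167 ± 24.2 in control and the second of 689.6 ± 55.0 normalised reads in SDS10, 736 ± 29.7 in SDS30 and 749.6 ± 25.8 in control, with overlap of the groups.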

How the data were processed

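H3K4me3 ChIP-seq values of 13 prefrontal cortex libraries were taken from 1 deposited table, with groups from the labels. Per the submitters' processing notes the authors used Trimmomatic, Bowtie2, MACS2 and DESeq2 and named mm10 and GRCm38.p5 as builds. Not given in the sources used here were the role and version of each tool and whether libraries were pooled for peak calling. The deposited values are a signal: reads per summit that the authors normalised by 1 factor per library. Undoing that factor returned whole reads for 100% of the values (tolerance 0.001). The score per peak that the authors deposited was not used.

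Summits were grouped into regions. Log2(summed value + 1) and the inner to outer log2 ratio were fitted with limma 3.58.1 (R 4.3.3) with a variance trend, all 13 libraries in 1 fit with a mean per group, and Benjamini-Hochberg adjustment over all regions tested. As alternatives, edgeR 4.0.16 and DESeq2 1.42.0 were run on the recovered reads. A filter on low values left out 521 of 48695 regions. Libraries held 4512817 to 10887911 reads on summits. Within groups, no pair of libraries repeated one another (chi-square per degree of freedom 2.38 to 6.87). Of the fits, only limma on the summed value was run on simulated reads, and its outcome is not used here. The simulated reads held no shift shared by a whole library. PCR reads are not independent molecules, and the intervals rest on the spread between libraries.

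Domains were named by rule: the 10 widest at coding genes, the 6 highest per summit in control, the smallest p per comparison and direction (3 in summed value and 2 in shape), the fixed genes, up to 3 per gene list by span, and those with no gene. Some results that this rule names are not reported here. Other names, and second measures given for a named domain, were chosen after their values were seen. Members and lists were chosen with earlier results of these data known.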

Additional observations from a re-analysis of the deposited data

Results flagged for a closer look

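In groups of 5 libraries, a library far from the other 4 was found in 11 of 140 groups of values. Chance gives such a gap in about 1 in 20 independent groups. These groups repeat the same libraries, and some of their domains were named by smallest p, so the count cannot be judged by that rate. SDS10 replicate 2 accounted for 9 of the 11. Its median centred log2 sum over wide domains was 0.16, against -0.03 to 0.02 in the other SDS10 libraries. Over the regions of all protein-coding genes it was 0.10 in this library. Its summed value stood far above the others at Meis2 (2115 normalised reads, others 1435 to 1619), Fbxo11 (1132, others 887 to 950), Epha7 (1526, others 1068 to 1157), Nptx1 (1001, others 642 to 689), Gria2 (1124, others 791 to 873), Kcnc1 (894, others 499 to 577) and Neurod2 (839.9, others 436 to 552). The same held at the domain with no gene on chromosome 15 (1457, others 1059 to 1134). The excitatory neuron markers of this library, given in the report, were also high, and their part in these values was not tested.

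SDS30 replicate 5 was high at Nptx1 (1106, others 636 to 755). SDS30 replicate 1 was low at Sox21 (519, others 590.0 to 604).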

How the results depend on the processing

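No wide domain passed the adjusted threshold in either measure with no low filter, pseudocounts of 0.5 and 5, no variance trend, a span of 2000 or 4000 bp or each library left out. The same held for the summed value with TMM factors, cyclic loess, edgeR and DESeq2, and for the ratio with the middle 50% of the length against the outer 25% at each end. Cyclic loess moved the median log2 difference of the summed value over wide domains to 0.0593 for SDS30 against control and to 0.0429 for SDS30 against SDS10, where the medians over all regions were 0.0048 and -0.0012. Spans of 2000 or 4000 bp gave 1224 or 51 domains with a coding gene, against 569. The Neto1 ratio for SDS10 against control turned to -0.0355 with the middle 50%, and the cause was not tested. With 1 library left out, the median of the summed value ran from -0.0145 to 0.0362 for SDS10 against control, from -0.0416 to 0.0066 for SDS30 against control and from -0.0634 to -0.0124 for SDS30 against SDS10. Differences near 0 changed sign. Kdm2b for SDS10 against control was -0.00318 under cyclic loess and -0.00102 with the replicate block, and Kmt2d was 0.00178 by DESeq2 and 0.0184 with the block. Nr3c2 for SDS30 against control was -0.00295 with TMM factors, -0.00151 by edgeR and -8.07e-05 by DESeq2. With 1 library left out, Kdm2b ran from -0.0364 to 0.0401, Kmt2d from -0.0774 to 0.0544 and Neurod2 from -0.221 to 0.0836 for SDS10 against control, and Arc from -0.0267 to 0.0890 and Nr3c2 from -0.0358 to 0.0625 for SDS30 against control. Without a variance trend, 4, 0 and 4 domains had an unadjusted p under 0.05 in summed value.

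Whether same-numbered libraries shared more than a number is not known. The correlations of their deviations from the group means ran from -0.34 to 0.40, and libraries of different numbers were not compared in this way. With the replicate number as a block, 0 wide domains were called in either measure. In summed value 40, 13 and 27 then had an unadjusted p under 0.05, against 28, 17 and 43 without the block.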
